A study of Mus musculus with 4 samples.

Results

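The genes described here are 10 genes of antigen presentation by the major histocompatibility complex (MHC), of 21521 protein-coding genes examined. 6 belong to the class I route (B2m, H2-K1, H2-D1, Tap1, Tapbp and Nlrc5) and 4 to the class II route (H2-Aa, H2-Ab1, Cd74 and Ciita). Their open chromatin was read from the deposited peak list as summits inside a gene or within 1 kb of it. Regions away from gene ends were added where a member owned the closest end of a protein-coding gene, up to 100 kb away. These rules gave 42 summits in 27 regions at the genes and 33 regions away from gene ends. Together they are 48 distinct regions of 113404 (0.0423%).

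ATAC-seq, an assay that cuts and tags open DNA with the Tn5 transposase, had been run on bulk nuclei of mouse colonic organoids, which are cultures of colon epithelium grown from crypts. The 4 libraries were 1 each of organoids from mice that had chronic colitis or from healthy control mice, kept for 24 h with 10 µM T-5224, an inhibitor of the transcription factor AP-1, or with 0.1% DMSO. All were of WT genotype and of 1 batch, and all cultures were grown with EGF, Noggin, R-spondin and Wnt conditioned media, then frozen and thawed before nuclei were taken. The study asked what inhibiting AP-1 does to the binding of transcription factors after colitis, but the peak list holds 1 value per peak and none per library, so neither colitis nor T-5224 was compared here. Which libraries entered the list, the mouse strain and the age were not given in the labels used. No value has a replicate, so no p-value is given. All intervals are exact Poisson 95% intervals of the pileup and account for counting error alone. Library depth is unknown.

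MHC class I molecules show peptides from inside the cell to CD8+ T cells and are found on nearly all nucleated cells. MHC class II molecules show peptides from taken-up material to CD4+ T cells and are made by professional antigen-presenting cells, and by gut epithelium when it is exposed to interferon gamma. The promoters of both classes carry X and Y boxes, bound by the RFX complex, CREB family factors and NF-Y, onto which the activators NLRC5 (class I) and CIITA (class II) are recruited.

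The strongest summits of the class I genes were high, except at Nlrc5. Those of the class II genes were lower, near the middle of all protein-coding genes. The class II values were reached by 50.5% (Cd74) to 59.8% (H2-Aa) of protein-coding genes. Apart from Nlrc5, the class I values were reached by 4.86% (H2-K1) to 28.8% (Tap1). The strongest summit was above 33-fold over background at 5 of the 6 class I genes, and between 9.39 and 17.2-fold at the 4 class II genes. The median was 40.7-fold for class I and 14.3-fold for class II, against 17.6-fold for all protein-coding genes. A summit of at least 20-fold was found at 5 of 6 class I genes and at 0 of 4 class II genes, where 47.3% of all protein-coding genes had one. The exception in class I was Nlrc5, the activator gene, at 16.8-fold. Having a summit at all did not set the members apart: all 10 had one, as did 74.9% of protein-coding genes. In bulk nuclei, a site open in few cells and a site weakly open in many cannot be told apart.

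**Figure D1:**
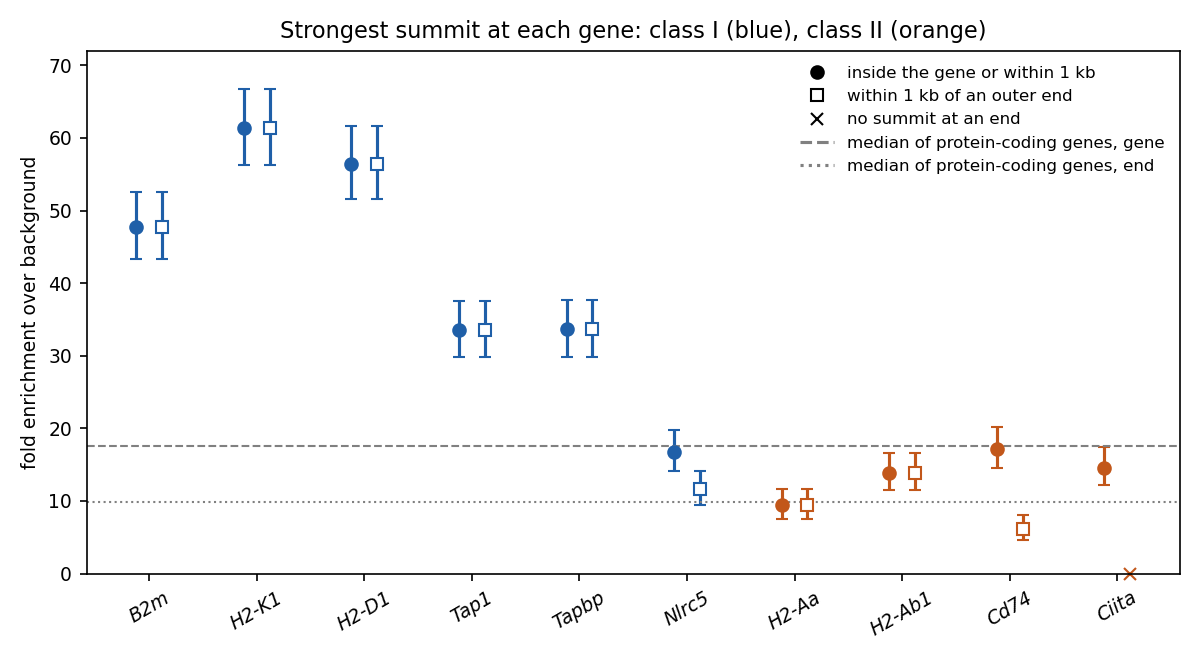
Fold enrichment over background at the strongest summit of each gene (filled circles: inside the gene or within 1 kb; open squares: within 1 kb of an outer end), with 95% Poisson intervals. Apart from Nlrc5, the class I genes (blue) lie between 33.5 and 61.3-fold, above all 4 class II genes (orange); the cross marks Ciita, which had no summit at an outer end.

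The heavy chain genes, which encode the peptide-binding chain of class I, had the highest values. H2-K1 (NCBI Gene 14972, chromosome 17, 33996012 to 34000619) had a summit of 61.3-fold (56.2 to 66.8, pileup 528), a level reached by 4.86% of protein-coding genes. H2-D1 (NCBI Gene 14964, chromosome 17, 35263094 to 35267497) reached 56.5-fold (51.6 to 61.7, pileup 486). The intervals of these 2 genes overlapped. B2m (NCBI Gene 12010, chromosome 2, 122147687 to 122153082), the light chain gene shared by class I molecules, had 47.8-fold (43.3 to 52.6, pileup 411), and its interval overlapped that of H2-D1 but not that of H2-K1. B2m lies within the outer bounds of another gene, Patl2. At all 3 genes the strong summit lay within 105 bp of an annotated start site and lower ones lay inside the gene: 3.71 and 6.84-fold in B2m, 9.27 and 15.0-fold in H2-D1. Those inside H2-K1 were between 2.67 and 9.51-fold. Parts of the H2-K1 and H2-D1 promoters are nearly the same sequence: their 300-base windows share an unbroken run of 47 bases, whereas the longest run that any of the other 4 members with a window shares with another gene's is 15 to 20 bases. How reads that match both were placed was not stated in the sources used.

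RefSeq promoter windows on GRCm38.p6, the assembly of the peak list's build mm10, run from 250 bases before to 50 after a start site. They were matched for 6 of the 10 members (7 windows, as H2-K1 has 2). Nlrc5, H2-Ab1, Cd74 and Ciita were not matched. The Y box is written here as ATTGG, the reverse complement of CCAAT. On the gene's strand, 4 members hold the X2-type core TGACG followed by this box. The stretch from core to box is shown for them, because its spacing is nearly the same in both classes. A further reason is that 3 of the 4 summits lie within 4 bp of its start. Capitals mark the X2-type core on either strand and the Y box.
B2m, chr2:122147609-122147638, plus strand: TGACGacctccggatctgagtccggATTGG
H2-D1, chr17:35262993-35263022, plus strand: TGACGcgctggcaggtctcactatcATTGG
H2-K1, chr17:34000359-34000388, minus strand: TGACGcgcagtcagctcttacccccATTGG
H2-Aa, chr17:34287867-34287897, minus strand: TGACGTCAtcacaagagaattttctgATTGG

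The core and the box were 20 bases apart in B2m, H2-D1 and H2-K1, and 21 in H2-Aa, the class II alpha chain gene. Either arrangement is rare: with both strands searched, TGACG followed after 20 bases by ATTGG was found in 0.0944% of 32851 promoter windows, and after 21 bases in 0.07%. These spacings were chosen after the members' sequences were seen. Among the 47 genes with one or the other arrangement were B2m and 4 genes named H2, which are the 4 members above and H2-M3, a nonclassical class I gene with a strongest summit of 17.04-fold. The H2-K1 and H2-D1 stretches have 23 of 30 bases in common, and B2m shares 13 with H2-K1 and 12 with H2-D1. These counts include the core and the box, which match by selection, so only the 20 bases between them were free to differ.

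The summit stood 2 bp from the X2-type core in B2m, 4 bp from it in H2-D1 and 1 bp from it in H2-Aa. In H2-K1 it lay 47 bp from that core, inside a CCAAT sequence next to the start sites. In Tap1 the summit was 49 bp from a TGACG. Of 3635 promoter windows with both a summit and a TGACG on either strand, 8.03% had their strongest summit within 4 bp of a match, a distance taken from the members themselves. H2-Aa, with the lowest fold of the 10 genes, thus had its summit within 4 bp of a TGACG, as B2m and H2-D1 did.

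Longer stretches up to the start site are shown for B2m, H2-D1 and H2-Aa, to place the other motif matches, and for Tap1, whose start lies beside an end of Psmb9. Capitals mark matches on either strand to the X2-type core, the Y box, an NF-kB-type motif (GGGA and CC with any 4 bases between) and an ISRE-type motif (GAAA, any 2 bases and GAAA again), the kind of element bound by interferon-activated factors.
B2m, chr2:122147507-122147686, plus strand: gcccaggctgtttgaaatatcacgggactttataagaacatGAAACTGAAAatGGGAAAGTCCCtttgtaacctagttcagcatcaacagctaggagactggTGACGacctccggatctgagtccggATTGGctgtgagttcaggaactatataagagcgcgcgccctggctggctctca
H2-D1, chr17:35262914-35263093, plus strand: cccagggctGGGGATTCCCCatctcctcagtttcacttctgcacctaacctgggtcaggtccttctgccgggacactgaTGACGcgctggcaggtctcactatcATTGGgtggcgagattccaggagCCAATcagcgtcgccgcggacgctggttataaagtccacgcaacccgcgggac
H2-Aa, chr17:34287824-34288003, minus strand: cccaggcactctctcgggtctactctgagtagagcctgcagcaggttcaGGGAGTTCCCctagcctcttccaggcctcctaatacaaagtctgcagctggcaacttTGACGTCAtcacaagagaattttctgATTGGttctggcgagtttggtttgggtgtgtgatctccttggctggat
Tap1, chr17:34187456-34187555, plus strand: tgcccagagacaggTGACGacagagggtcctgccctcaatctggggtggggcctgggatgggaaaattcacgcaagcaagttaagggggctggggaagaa

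An NF-kB-type match was present in B2m, H2-K1, H2-D1 and H2-Aa (20.7% of all windows have one), overlapping matches on both strands counting once. An X2-type core was found in 5 of the 6 members with a window (20.8% of all windows). The letters of the Y box were found in all 6 (37.4%), on either strand and at any place in the window. In Tap1 they lay 222 bases before the start site, ahead of its TGACG at 86 bases. In Tapbp they lay 248 and 165 bases before it, with no TGACG in the window. The ISRE-type letters were found in B2m alone of the 6 (3.44% of all windows). No member's window held the AP-1 letters TGANTCA, which 7.81% of all windows hold, nor CCTAGNNAC, an X1-type core (3.91%), nor the STAT-type letters TTCNNNGAA (8.30%). A match is a description of letters and no measure of binding. The motifs were searched as exact letters, so an element that differs by a base is not counted. A window without a match may therefore still hold such an element, including an ISRE or an X1 box.

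**Figure D2:**
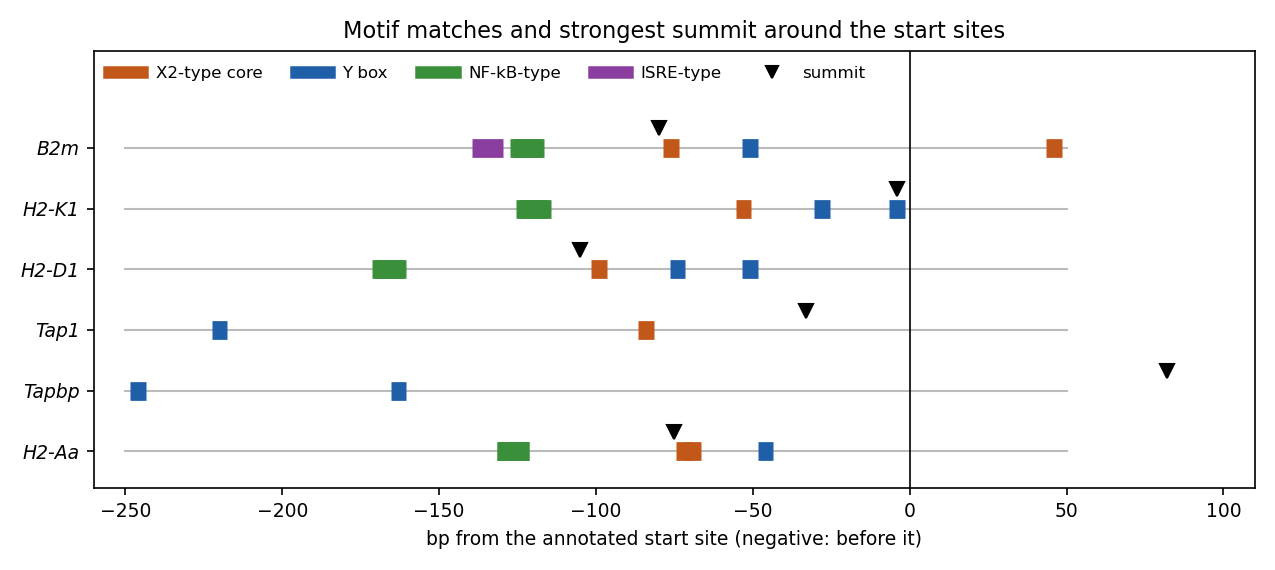
Motif matches (coloured blocks) and the strongest summit (black triangles) along the promoter windows of the 6 members with one, in bp from the annotated start site; for H2-K1 the window of the lower-coordinate start is drawn. In B2m, H2-D1 and H2-Aa the summit stands 1 to 4 bp from the X2-type core.

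Tap1 and Tapbp, which encode a subunit of the peptide transporter and tapasin, the protein that couples it to class I molecules, had almost equal summits. Tap1 (NCBI Gene 21354, chromosome 17, 34187556 to 34197225) had 33.5-fold (29.8 to 37.6), 33 bases before its start site. This summit also lay within 1 kb of an end of Psmb9, an immunoproteasome subunit gene, and cannot be given to 1 of the 2 genes. A further summit of 22.0-fold past the other end of Tap1 lay within 1 kb of an end of Psmb8, also an immunoproteasome gene. Tapbp (NCBI Gene 21356, chromosome 17, 33919478 to 33929290) had 33.6-fold (29.9 to 37.7), 82 bases after its start site and within 1 kb of an end of Zbtb22. Its other end had 26.0-fold, inside the neighbour Rgl2. These 2 genes lay below B2m, H2-D1 and H2-K1 by more than their counting intervals, and above all 4 class II genes by the same measure.

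Nlrc5 (NCBI Gene 434341, chromosome 8, 94434335 to 94527272), which encodes the activator of class I genes, differed from the genes it acts on. At its lower-coordinate end it had 11.6-fold (9.44 to 14.1), and its strongest summit, 16.8-fold (14.2 to 19.8), lay inside the gene, 57884 bp from that end. The intervals of this value overlapped those of H2-Ab1, Cd74 and Ciita, and not that of H2-Aa. In this it was nearer to the class II genes than to the other class I genes. A gene of this length offers more places for a summit: of the 2185 protein-coding genes between the lengths of Ciita (51051 bp) and Nlrc5 (92938 bp), 60.3% had a summit of at least 20-fold, which neither gene had. Among the 3252 genes in the length range of the other 8 members (4404 to 9813 bp) the share was 43.5%.

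The class II chain genes, which encode the peptide-binding dimer, had a summit at 1 end each. H2-Aa (NCBI Gene 14960, chromosome 17, 34282744 to 34287823) had 9.39-fold (7.47 to 11.7), 75 bases before its start site. H2-Ab1 (NCBI Gene 14961, chromosome 17, 34263227 to 34269418), the beta chain gene, had 13.9-fold (11.5 to 16.6) at its lower-coordinate end. Their intervals overlapped slightly. Each had 1 further summit within the gene, of 4.06-fold in H2-Aa and 6.14-fold in H2-Ab1.

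Cd74 (NCBI Gene 16149, chromosome 18, 60803849 to 60812652) encodes the invariant chain, which guards the class II groove until peptide is loaded. It was the class II gene with the highest value, but not at an end: 17.2-fold (14.5 to 20.1) was measured 2059 bp inside the gene and 6.14-fold (4.62 to 8.02) at the lower-coordinate end. Ciita (NCBI Gene 12265, chromosome 16, 10480014 to 10531064), the class II activator, had no summit within 1 kb of either outer end, where 64.6% of protein-coding genes had one. Its 7 summits all lay inside the gene, from 2.90 to 14.6-fold (12.2 to 17.4), the highest being 15206 bp from the lower-coordinate end. The gene table used gives only outer bounds, so a start site within Ciita could not be matched to a summit.

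At outer ends alone the classes were further apart. The median was 40.7-fold for class I and 7.77-fold for class II (9.85-fold for all protein-coding genes). 5 of 6 class I genes and 0 of 4 class II genes had at least 20-fold there, against 39.9% of protein-coding genes. The values of Nlrc5 (11.6-fold) and H2-Ab1 (13.9-fold) overlapped, so the classes as wholes did not separate.

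The regions also differed in width. The region with the strongest summit of a gene was 1842 to 3077 bp wide at the class I genes other than Nlrc5, where it was 926 bp. At the class II genes it was 475 to 1320 bp wide, the widest being that of Ciita. The medians were 2294 bp for class I and 655 bp for class II. The same measure had a median of 1405 bp over the 16116 protein-coding genes with a summit, and the median over all regions in the list, weak ones included, was 481 bp. A peak caller extends a region while the signal stays above its threshold, so width and height are not independent measures.

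**Figure D3:**
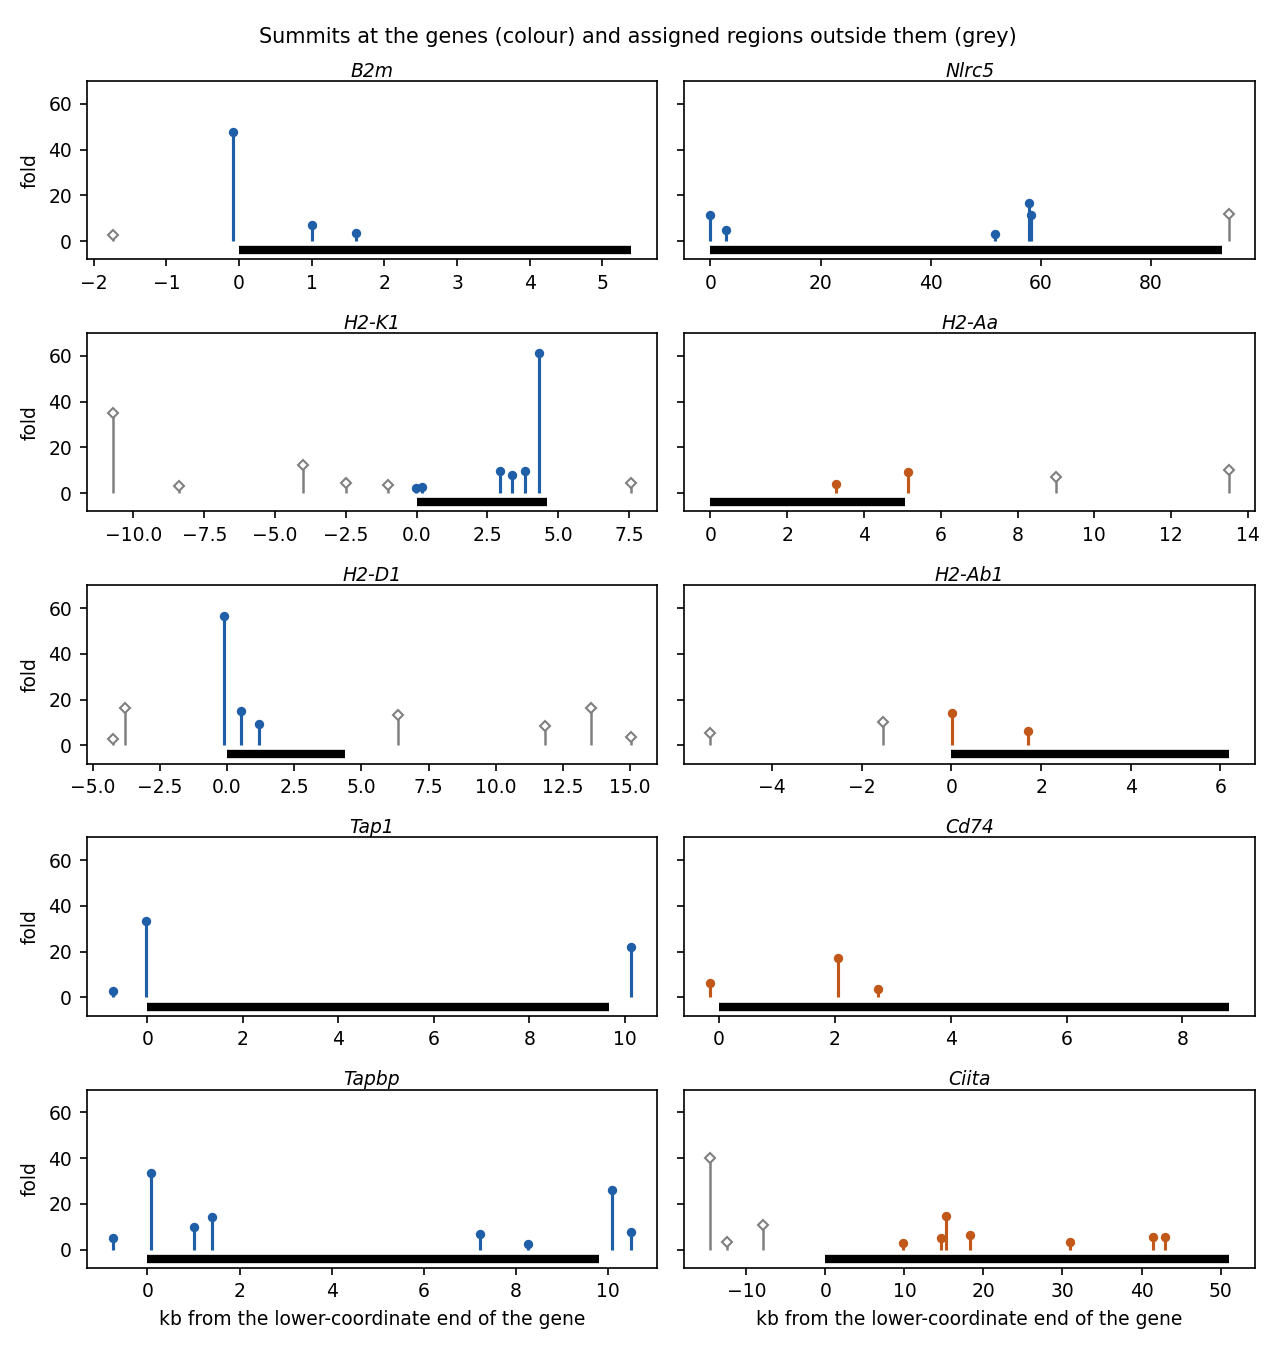
Fold of every summit at each gene (class I blue, class II orange) and of assigned regions outside it (grey diamonds), by distance in kb from the gene's lower-coordinate end; the black bar is the gene and horizontal scales differ. High summits stand at an end of the first 5 class I genes, while the highest mark near Ciita, 40.1-fold, lies outside the gene.

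Away from gene ends the contrast was not seen. 19 regions were assigned to the 6 class I genes and 14 to the 4 class II genes, with a median of 3 per gene in each class and 2 over all protein-coding genes. At least 1 such region was assigned to 9 of 10 members, Tap1 being without, and to 69.9% of protein-coding genes. Their median fold was 4.99 in class I and 6.67 in class II, against 4.64 for all regions assigned in this way. 12 of the 33 lay inside their own member and 21 outside it. Those inside lay in Tapbp, Nlrc5 and all 4 class II genes. They are also counted at the genes, and include the strongest summits of Nlrc5, Cd74 and Ciita. The comparisons at the genes and away from gene ends are therefore not separate.

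Ciita had the strongest of these regions, although no summit of its own gene exceeded 14.6-fold. It lay at chromosome 16, 10464973 to 10465982, 14.6 kb from the lower-coordinate end of Ciita, and reached 40.1-fold (36.0 to 44.6). A second region on that side, 7.95 kb away, had 10.7-fold, inside or within 1 kb of the lncRNA gene Gm41420, and the last had 3.13-fold. H2-K1 had 6 assigned regions, led by 35.2-fold (31.4 to 39.4) at chromosome 17, 33983481 to 33986016, inside or within 1 kb of the lncRNA gene AA388235 and 10.7 kb from H2-K1. The other 5 were between 3.01 and 12.5-fold. H2-D1 also had 6, from 2.55 to 16.5-fold, on both sides of the gene. H2-Aa and H2-Ab1 had 3 each, and the highest of these, 10.2-fold at H2-Aa and 9.97-fold at H2-Ab1, were close to the values at the ends of those genes. Assignment by distance does not show that a region acts on the gene.

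On chromosome 17 the class II chain genes lay in a stretch with no region of 20-fold, a level reached by 15.5% of regions along the chromosome. Segments were bounded by the lower-coordinate ends of the genes named. Between H2-K1 and H2-Oa the strongest region was that of H2-K1, and 4 of 16 regions reached 20-fold. Between H2-Oa and Psmb9 3 of 20 did, between Psmb9 and H2-Ob 2 of 8, and between H2-Ea and H2-D1 29 of 157. From H2-Ob to H2-Ea, which holds H2-Ab1 and H2-Aa, 0 of 14 regions did, and the highest was the 13.9-fold of H2-Ab1. At the chromosome's share 14 regions would hold 2.17 on average, so the count of 0 does not set the stretch apart. The regions there were the least dense of the 5 segments between H2-K1 and H2-D1, with 13.6 per 100 kb against 14.1 to 22.3, and covered 7.11% of the stretch against 10.3% to 22.7%. Along chromosome 17 there were 5.22 per 100 kb, covering 3.92%. Their median fold, 9.56, was the highest of the 5 segments, whose other medians were 4.99 to 5.51.

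**Figure D4:**
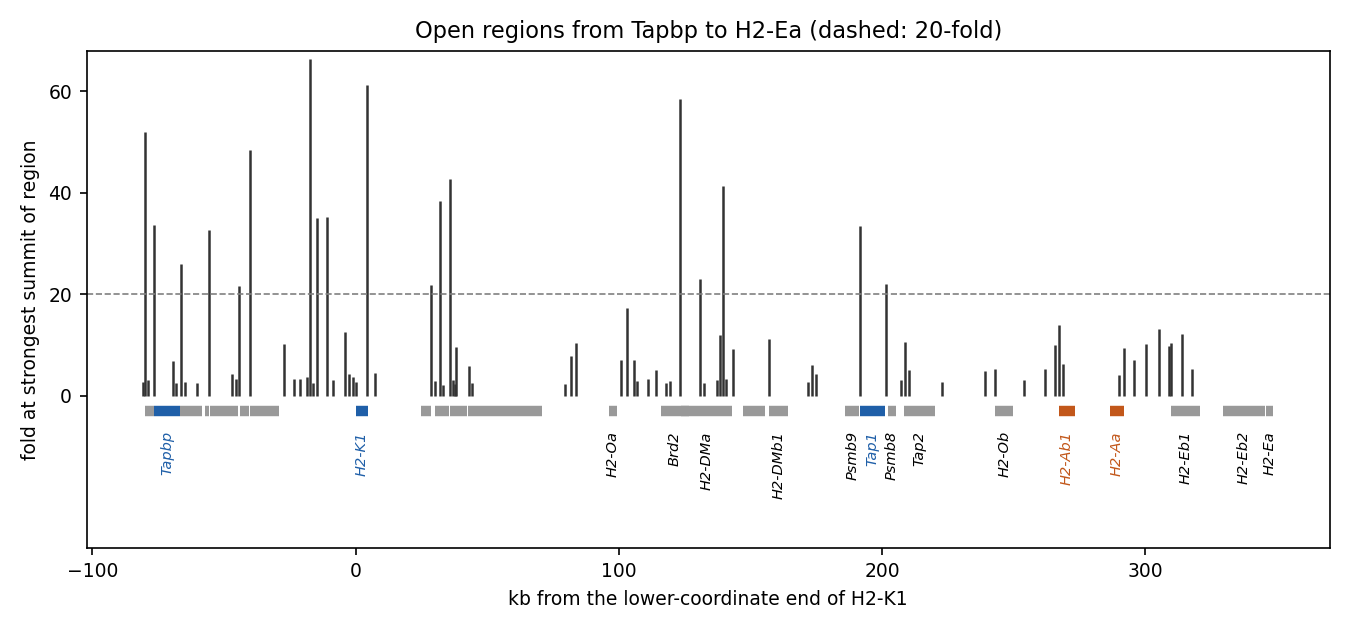
Fold at the strongest summit of each region (vertical lines) from Tapbp to H2-Ea by distance in kb from H2-K1, with protein-coding genes and H2-Ea as bars below (class I members blue, class II members orange, others grey; only some are named) and 20-fold as a dashed line. No region from H2-Ob to H2-Ea reaches the line.

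Other genes of the class I route had a lower median than the class I members, with some of the highest single values. Of 22 such genes 22 had a summit inside the gene or within 1 kb (74.9% of protein-coding genes), 12 had at least 20-fold (47.3%), and the median was 22.0-fold. The strongest were the chaperone genes of the endoplasmic reticulum Calr (71.4-fold) and Canx (67.5-fold) and the proteasome activator gene Psme2 (60.6-fold, within 1 kb of an end of Rnf31). The 9 genes of this list named H2 are all class I genes outside the members. They ranged from 2.90 to 39.0-fold with a median of 19.2-fold, all below H2-K1 and H2-D1. Sequence shared among these genes was not examined. How reads matching more than 1 of them were placed was not stated in the sources used. Among the 12 genes with at least 20-fold, Psmb9 (33.5-fold) and Psmb8 (22.0-fold) shared their strongest summits with the member Tap1.

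Other genes of the class II route split by kind. Of 14 genes 10 had a summit (74.9% of protein-coding genes), 5 had at least 20-fold (47.3%), and the median was 11.7-fold (17.6-fold for all protein-coding genes), so the count with a summit was near the background. The 6 that are not MHC genes each had a summit (median 30.5-fold), and 4 of them had at least 20-fold. Among their lysosomal proteases, Lgmn (55.6-fold) and Ctsl (39.0-fold) were high, whereas Ctss had 8.35-fold, the lowest of the 6. Of the 8 named H2, 4 had a summit and 1 had at least 20-fold, and H2-Eb2, H2-Ea (a transcribed pseudogene in the table used), H2-DMb2 and H2-Oa had none. H2-DMa, for a subunit of the peptide exchange factor, had 58.5-fold, with that summit inside the overlapping gene Brd2, and a separate summit of 41.4-fold (37.2 to 45.9) inside H2-DMa, outside Brd2 and 3582 bp from the upper-coordinate end. The other 7 reached at most 12.2-fold.

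The factors that act on these promoters and the interferon gamma route had high summits. All 15 genes examined had a summit (74.9% of protein-coding genes) and all 15 had at least 20-fold (47.3%), with a median of 43.8-fold and a range of 28.1 to 78.7-fold. The interferon gamma receptor gene Ifngr1 was highest (78.7-fold, 72.9 to 84.9), followed by the NF-Y subunit genes Nfya (71.6-fold, within 1 kb of an end of Oard1) and Nfyb (69.3-fold, inside Hcfc2). All 15 were above both activator genes, Nlrc5 and Ciita.

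**Figure D5:**
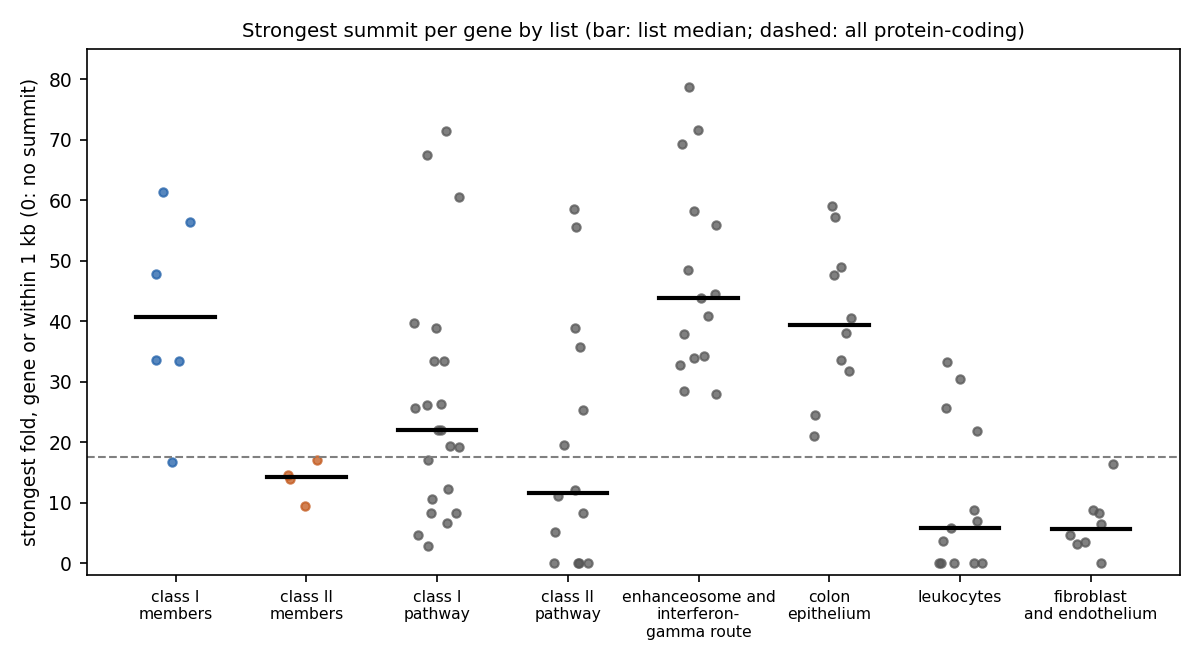
Strongest fold of each gene (points; 0 where no summit was found) in the members, the pathway lists and the cell type marker lists, with the list median as a bar and the median of all protein-coding genes, 17.6-fold, dashed. Class II members and the class II pathway list have medians of 14.3 and 11.7-fold, and the enhanceosome and interferon gamma list has 43.8-fold.

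Cell type markers were read against the same shares of protein-coding genes, 74.9% with a summit and 47.3% with at least 20-fold. All 10 markers of colon epithelium had at least 20-fold, with a median of 39.4-fold, led by Krt8 (59.1-fold) and Hnf4a (57.3-fold). Summits were found at 8 of 13 leukocyte markers, whose median was 5.91-fold, and 4 had at least 20-fold. The strongest of these were Itgax (33.3-fold, its only summit, at the upper-coordinate end) and Xcr1 (30.5-fold, within 1 kb of an end of Fyco1). The myeloid genes Spi1 (25.7-fold, at the upper-coordinate end) and Cd68 (21.8-fold, within 1 kb of an end of Eif4a1) followed. The gene bounds used carry no strand, so whether these ends of Itgax and Spi1 hold start sites was not examined. Neither gene had a summit within 1 kb of its lower-coordinate end. The pan-leukocyte gene Ptprc, the T cell genes Cd3e and Cd8a and the B cell genes Cd79a and Cd79b had none. Summits were found at 7 of 8 fibroblast and endothelial markers (median 5.62-fold), none of them with 20-fold, led by Col1a1 (16.3-fold) and Pdgfra (8.81-fold). The part of other cell types in the class II values was not tested.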

How the data were processed

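Bulk ATAC-seq libraries of mouse colonic organoids, 1 in each of 4 groups, were represented by 1 deposited peak list in narrowPeak format. Per the submitters' processing notes, Bowtie2, MACS2 and the build mm10 were used. Versions, thresholds, duplicate handling and the libraries in the call were not stated in the sources used. The deposited fold at a summit is a linear ratio over the authors' background. The lowest −log10 q the authors kept was 1.51, and the deposited score equalled that value times 10 without its decimals in 100% of records.

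All fold values were whole multiples of 0.116 (tolerance 0.01), which is 1 pileup count over an expected background of 7.63 plus 1, and a Poisson tail with that mean gave the deposited p-values below a pileup of 100. Pileups were recovered from this and given Poisson intervals (scipy 1.17.1). Copies of 1 molecule would make them too narrow. This single background does not correct for copy number or mappability.

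Gene bounds came from an NCBI table on GRCm38.p6, which has no strand or transcripts. Of its 21900 protein-coding genes, 21521 on chromosomes 1 to 19 and X were used. The others lay on other chromosomes or on sequences outside the assembled ones. Regions were placed by their strongest summit. The search was tested on simulated data: 200 of 200 planted summits were recovered. No replicates or groups could be compared, and leaving out a library was not possible.

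All members were named, with the 3 strongest and those without a summit of each pathway list, pathway genes sharing a member's summit, neighbours at a summit, and the 2 strongest of each marker list. H2-M3, Ctss, the second summit of H2-DMa, Spi1, Cd68 and the leukocyte markers without a summit were named after their values were seen. 1 planned leukocyte marker is not reported here. The members and lists were chosen with earlier results of these data known. Alternatives were another threshold, window, assignment distance and overlap rule.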

Additional observations from a re-analysis of the deposited data

How the results depend on the processing

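All 10 members had a summit under 4 of the 6 alternatives tried. With summits within 1 kb of an outer end only, Ciita had none, and with summits inside the gene only, Tap1 had none. The class I median of 40.7-fold became 15.9-fold when only summits inside the gene were counted, since the summits of B2m, H2-D1 and Tap1 lie before the start. The class II median of 14.3-fold became 7.77-fold when only summits within 1 kb of an outer end were counted. The 5 class I genes other than Nlrc5 were above all 4 class II genes under the other 5 settings (−log10 q of at least 10, the strongest summit of each region only, a window of 2 kb, outer ends only and region overlap of at least 1 bp), and not with summits inside the gene only. With a −log10 q of at least 10, 12 rather than 19 regions away from gene ends were assigned to class I. The other 48 comparisons of counts and medians with an alternative stayed within 1.5 times the reported count or within the counting interval of the reported median, as did 96 single-gene values, while 14 moved further. No paired analysis was possible because each group has 1 library and the list gives no value per library. The depth of the libraries is unknown, so a site without a summit is one that was not called, and may be open below the threshold.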
